A study of Mus musculus with 8 samples.

Results

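Knockdown of Baf180 was set against scramble shRNA in proliferating C2C12 cells, a mouse myoblast line that divides in serum and fuses into myotubes when serum is withdrawn. The comparison used 4 of the 8 libraries of the study, chosen by their labels: 2 libraries of cells with an shRNA against Baf180, the protein of the gene Pbrm1, and 2 libraries of cells with a scramble shRNA. The other libraries were 2 with an shRNA against Brd9 and 2 with an shRNA against Baf250A, the protein of Arid1a. All groups were transduced with lentivirus in polybrene at 8 ug/ml, selected in puromycin at 2 ug/ml, kept at 1 ug/ml, and grown in 10% calf serum, so the scramble cells had also been transduced and selected. Each target was hit by 1 shRNA and the control by 1 scramble line. Whether the 2 libraries of each line were grown as separate cultures is not labelled, and the p-values therefore rest on library-to-library spread that may be technical.

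SWI/SNF complexes use the energy of ATP to slide or evict nucleosomes, and mammalian cells hold 3 forms that share a catalytic core. Baf180 is a subunit of the form called PBAF, with several bromodomains that bind acetylated histones, and it joins the complex with Arid2, Brd7 and Phf10. Baf250A defines the canonical form, cBAF, and Brd9 the non-canonical form, ncBAF. In muscle cells SWI/SNF is known as a partner of the transcription factor MyoD at muscle genes.

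Library totals ranged from 18941101 to 20400855 estimated counts for Baf180 and from 17763062 to 18575484 for scramble. Levels below are in CPM, with TMM factors applied to the library sizes, and a call is an adjusted p below 0.05 in edgeR's quasi-likelihood test with Benjamini-Hochberg adjustment over all 12420 genes tested. Scramble replicate 2 stood apart in one respect, since 1487 genes had counts in it and in no other library (2484 counts in all), against 79 to 132 such genes in each of the other 7 libraries. The myoblast markers Myod1, Myf5, Cdh15, Des and Chrna1 were present in all 4 libraries, with Cdh15 at 327 and 256 CPM in Baf180 libraries and 168 and 165 CPM in scramble libraries. Of 16 endothelial and blood cell markers, 7 had no count in any of the 4 libraries, and all 16 summed to 5.33 and 5.07 CPM in Baf180 and 3.31 and 4.22 CPM in scramble. In bulk RNA, fewer cells of a type and less RNA per cell cannot be told apart.

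Pbrm1 itself, on chromosome 14 from 31019138 to 31121592 (GRCm38), was the check of the knockdown. It had 3.77 and 4.69 CPM in the Baf180 libraries, against 49.2 and 56.0 CPM in the scramble libraries, and the groups did not overlap. The log2 fold change was -3.63 (SE 0.28, edgeR adjusted p = 7.04e-05), and the fall stayed called without any 1 of the 4 libraries. Among the other PBAF subunits, Brd7, a bromodomain protein, fell to 28.1 and 37.3 CPM in Baf180 libraries, against 50.4 and 46.8 CPM in scramble libraries (log2 fold change -0.57). Phf10, which carries PHD fingers, fell to 41.7 and 59.0 CPM in Baf180 libraries, against 78.5 and 72.5 CPM in scramble libraries (log2 fold change -0.58). Both of these falls were small, and neither was called without Baf180 replicate 1, without scramble replicate 1 or without scramble replicate 2, with adjusted p-values of up to 0.236 for Brd7 and 0.15 for Phf10. Arid2, the PBAF subunit with an AT-rich interaction domain, had 30.5 and 42.1 CPM in Baf180 libraries and 45.3 and 49.2 CPM in scramble libraries and was not called (log2 fold change -0.38, edgeR adjusted p = 0.229). Its direction turned with a correction for transcript GC content and length (log2 fold change 0.05).

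Most subunits of the other forms were not called, as was true of most genes, since 34.2% of all tested genes were called in either direction. Of 7 tested cBAF and ncBAF subunits, Bicra, an ncBAF scaffold, rose (44.6 and 35.0 CPM in Baf180, 25.9 and 26.0 CPM in scramble), but it was not called with the correction for GC content and length (log2 fold change 0.62 without it and 0.03 with it). Smarca4, the ATPase Brg1, overlapped between the groups, at 681 and 571 CPM in Baf180 libraries and 564 and 576 CPM in scramble libraries, and its log2 fold change was 0.13 without the correction and -0.25 with it, called in neither. Of 15 tested shared subunits, 3 fell, including the core subunit Smarcc1 (148.7 and 150.2 CPM in Baf180, 249.96 and 216 CPM in scramble, log2 fold change -0.64) and Smarce1 (log2 fold change -0.40). The 3 falls made up 20% of these subunits, near the 17.0% of all tested genes called lower. With the correction 5 of the 15 fell, where 20.2% of all tested genes were called lower. No more than 1 of the falls was called without Baf180 replicate 1, scramble replicate 1 or scramble replicate 2, and 3 subunits were called higher without Baf180 replicate 2.

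Across all genes, 2142 were higher in Baf180 (17.2% of those tested) and 2111 lower (17.0%), 34.2% together. At least 2-fold changes made up 876 of the rises and 880 of the falls, and 8-fold changes 57 and 89. Most calls were below 2-fold, and most were lost without 1 or another of the 4 libraries. There were 1068 rises and 642 falls without Baf180 replicate 1, 866 and 819 without scramble replicate 1, 843 and 727 without scramble replicate 2, and 2383 and 2146 without Baf180 replicate 2. The rises called in every one of these fits and with all libraries numbered 707, and the falls 440.

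A trend with transcript GC content ran through the comparison. Across 12290 genes the log2 fold change rose with GC content (Spearman rho 0.59, a description, since genes are not independent replicates). In the 1229 genes lowest in GC content, 33.2 to 42.3% GC, the median log2 fold change was -0.81, with 14 genes called higher and 512 lower. In the 1229 genes highest in GC content, 58.5 to 72.8%, the median was 0.51, with 480 called higher and 38 lower. The same trend separated the Baf180 libraries from each other: the log2 ratio of Baf180 replicate 1 over replicate 2 rose with GC content (rho 0.62), while for scramble replicate 1 over replicate 2 rho was -0.08. Over genes of at least 5 CPM the median absolute log2 ratio between replicates was 0.270 for Baf180 and 0.239 for Brd9. It was 0.231 for Baf250A and 0.0917 for scramble, so by this median the scramble replicates lay closest. The share of these genes past 2-fold between replicates was nonetheless largest in scramble, at 0.50%. It was 0.16% for Baf180, 0.07% for Brd9 and 0.43% for Baf250A.

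**Figure D1:**
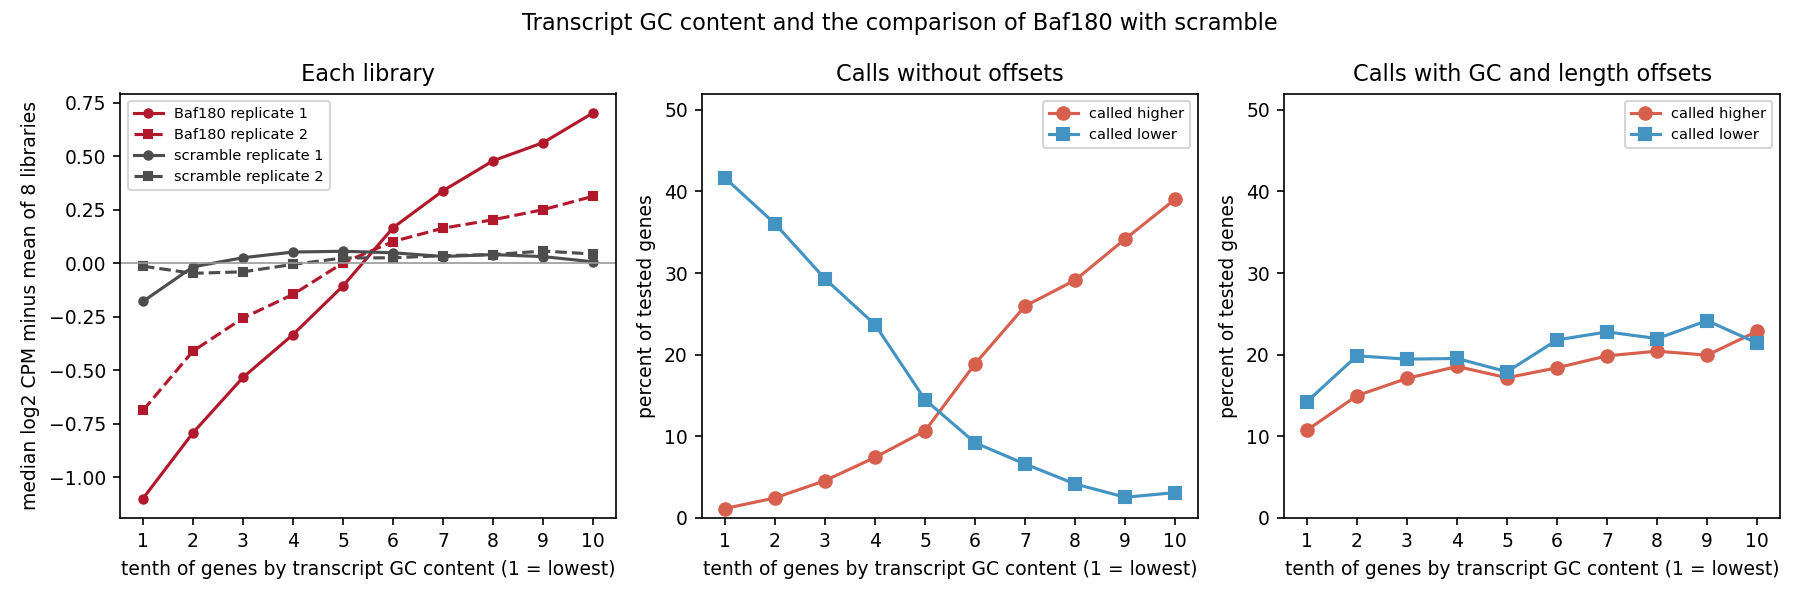
Genes in 10 bins of 1229 by transcript GC content (x axis, 1 lowest). The left panel gives the median log2 CPM of each Baf180 and scramble library minus the mean of all 8 libraries, and the other panels the percent of tested genes called higher or lower in Baf180 against scramble, without and with offsets for GC content and length. Both Baf180 lines climb with GC content, replicate 1 more steeply (-1.10 to 0.70) than replicate 2 (-0.69 to 0.31), and both scramble lines stay close to 0. Calls reach 41.7% lower in bin 1 and 39.1% higher in bin 10 without offsets, and with offsets 14.2% lower in bin 1 and 22.9% higher in bin 10.

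For that reason the counts are given as fitted and again with offsets that remove, library by library, a smooth trend of level on GC content and then on gene length. With the offsets rho was 0.02, and 2229 genes were higher (17.9%) and 2514 lower (20.2%). Of the calls without offsets, 2945 (69.2%) were called in the same direction with them, and no gene changed direction between calls. Real changes that happen to track GC content are taken out by the offsets too, so a technical and a biological trend cannot be told apart here. They also made the calls depend less on single libraries: leaving out each of the 4 libraries gave 1436 to 1991 rises and 1694 to 2093 falls. A call of this firmest kind, with and without offsets and without any 1 library, was made for 660 rises and 363 falls.

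The largest rises were genes of the cell surface and the extracellular matrix. Aoc3, an amine oxidase of the cell surface (chromosome 11, 101330606 to 101339430), had 22.7 and 19.4 CPM in Baf180 libraries, against 0.674 and 0.751 CPM in scramble libraries, a log2 fold change of 4.87 (SE 0.27, edgeR adjusted p = 1.59e-05). Svep1, a large secreted adhesion protein (chromosome 4, 58042796 to 58206596), had 212 and 203 CPM in Baf180 libraries, against 12.1 and 9.54 CPM in scramble libraries (log2 fold change 4.26, SE 0.16). Fndc1, a secreted protein with fibronectin type III domains, had 98.5 and 102 CPM in Baf180 libraries, against 4.83 and 4.91 CPM in scramble libraries (log2 fold change 4.36, SE 0.15). In all 3 the Baf180 libraries lay far above the scramble libraries, and the libraries of a group lay close together. The laminin chain Lama4 (log2 fold change 4.53), the small leucine-rich proteoglycan Prelp (4.17), the collagen Col8a2 (4.04), the matricellular protein Ccn5 (3.72) and the secreted C1qtnf3 (3.88) completed the matrix and secreted group. Sfrp2, a secreted protein that binds Wnt ligands, had a log2 fold change of 4.60, and Dhrs3, an enzyme that reduces retinal, one of 3.97. A call with the offsets was a condition for entering this list of 10, so it is no separate support. With the offsets the log2 fold changes were 3.29 to 4.62. With any 1 library left out, and no offsets, they ran from 3.39 (lowest, Ccn5) to 5.14 (highest, Sfrp2).

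The largest falls were led by genes named for neurons. Nefl, the light neurofilament chain (chromosome 14, 68083863 to 68089095), had 1.62 and 2.35 CPM in Baf180 libraries, against 273 and 246 CPM in scramble libraries, a log2 fold change of -7.02 (SE 0.20, edgeR adjusted p = 4.72e-07). Its neighbour Nefm, the medium chain (chromosome 14, 68119545 to 68125004), had 6.38 and 4.47 CPM in Baf180 libraries, against 150.4 and 131 CPM in scramble libraries (log2 fold change -4.70, SE 0.20). Stmn4, a tubulin-binding stathmin, had 0.232 and 0.218 CPM in Baf180 libraries, against 47.0 and 39.6 CPM in scramble libraries (log2 fold change -7.55, SE 0.36). The groups were far apart in each, and all 3 genes were plainly expressed in the scramble myoblasts. Gap43, a growth cone protein, fell by 6.10 on the log2 scale, and Ngfr, the p75 neurotrophin receptor, by 5.95. Lrrn1, a membrane protein with leucine-rich repeats, fell by 5.14, and the actin-binding muscle protein Xirp1 and the membrane protein Prrg4 each had a log2 fold change of -4.24. For the falls, too, a call with the offsets was a condition for entering the list. With any 1 library left out, and no offsets, the log2 fold changes of these 8 genes ran from -7.67 (Stmn4) to -4.09 (Xirp1).

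The remaining 2 of the 10 largest falls rested on scramble replicate 2. Grk4, a kinase of G protein-coupled receptors, had 1.45 and 1.31 CPM in Baf180 libraries, against 1.68 and 77.8 CPM in scramble libraries, and Mrgpra6, a Mas-related receptor, had 17.0 and 14.8 CPM in Baf180 libraries, against 23.8 and 793 CPM in scramble libraries. Without scramble replicate 2 neither was called, and the largest adjusted p over the fits that left out 1 library was 0.719 for Grk4 and 0.162 for Mrgpra6. In all, 16 genes called lower had over 4 times the level in scramble replicate 2 that they had in scramble replicate 1, and all 16 lost their call without scramble replicate 2.

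**Figure D2:**
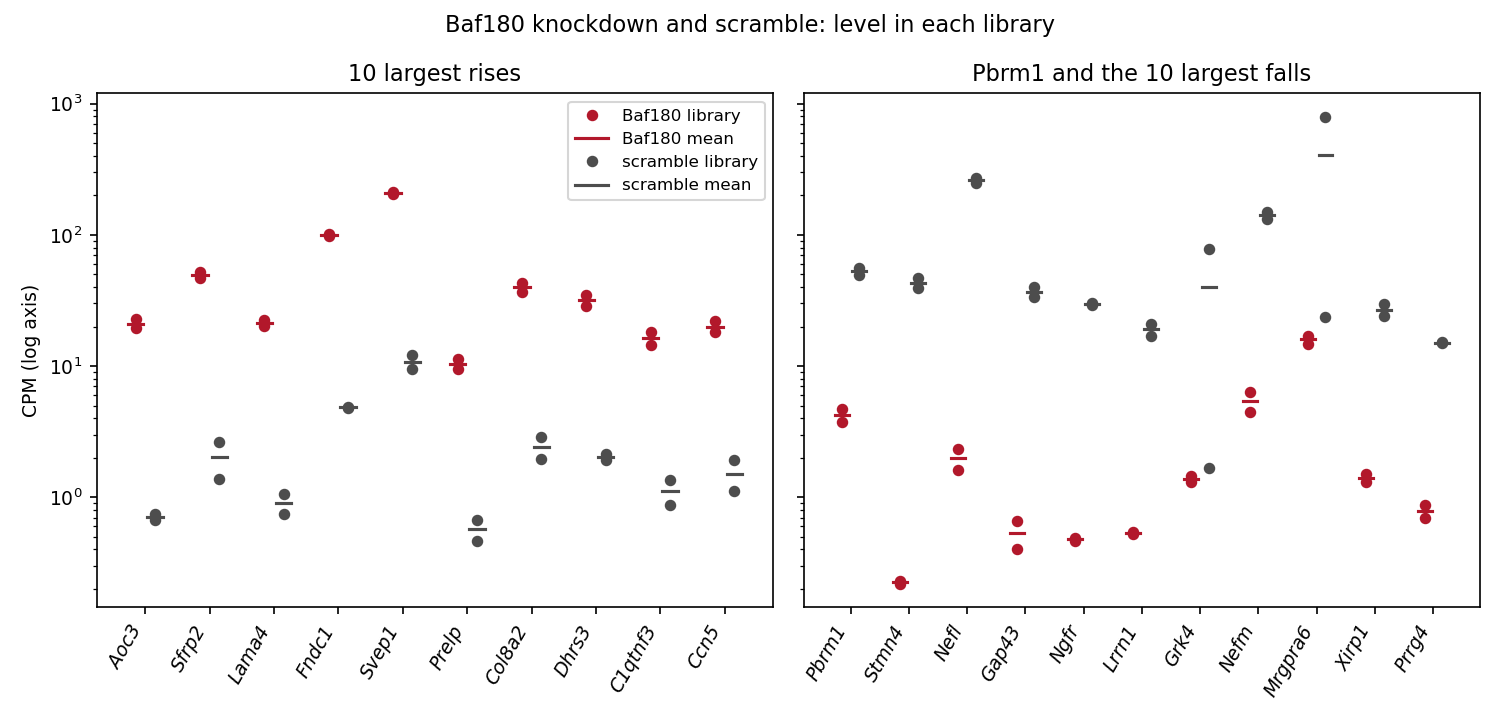
Level in CPM on a log axis in the 2 Baf180 libraries (red points) and the 2 scramble libraries (grey points), with group means as lines, for the 10 largest rises (left) and for Pbrm1 and the 10 largest falls (right). The points of a group lie close together except for Grk4 and Mrgpra6, where scramble replicate 2, at 77.8 and 793 CPM, stands far above scramble replicate 1.

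Gene groups were read from lists by function. Counts cover only members that passed the filter on low counts, and each list's share is to be set beside the 17.2% of all tested genes called higher and the 17.0% called lower, and its median beside -0.02 for all genes (-0.03 with offsets). Those shares hold for the fit with all libraries only. Without Baf180 replicate 1, scramble replicate 1 or scramble replicate 2 the calls over all genes were also far fewer, as given above. A smaller count in those fits therefore does not by itself set a list apart. Some genes are on more than 1 list.

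**Figure D3:**
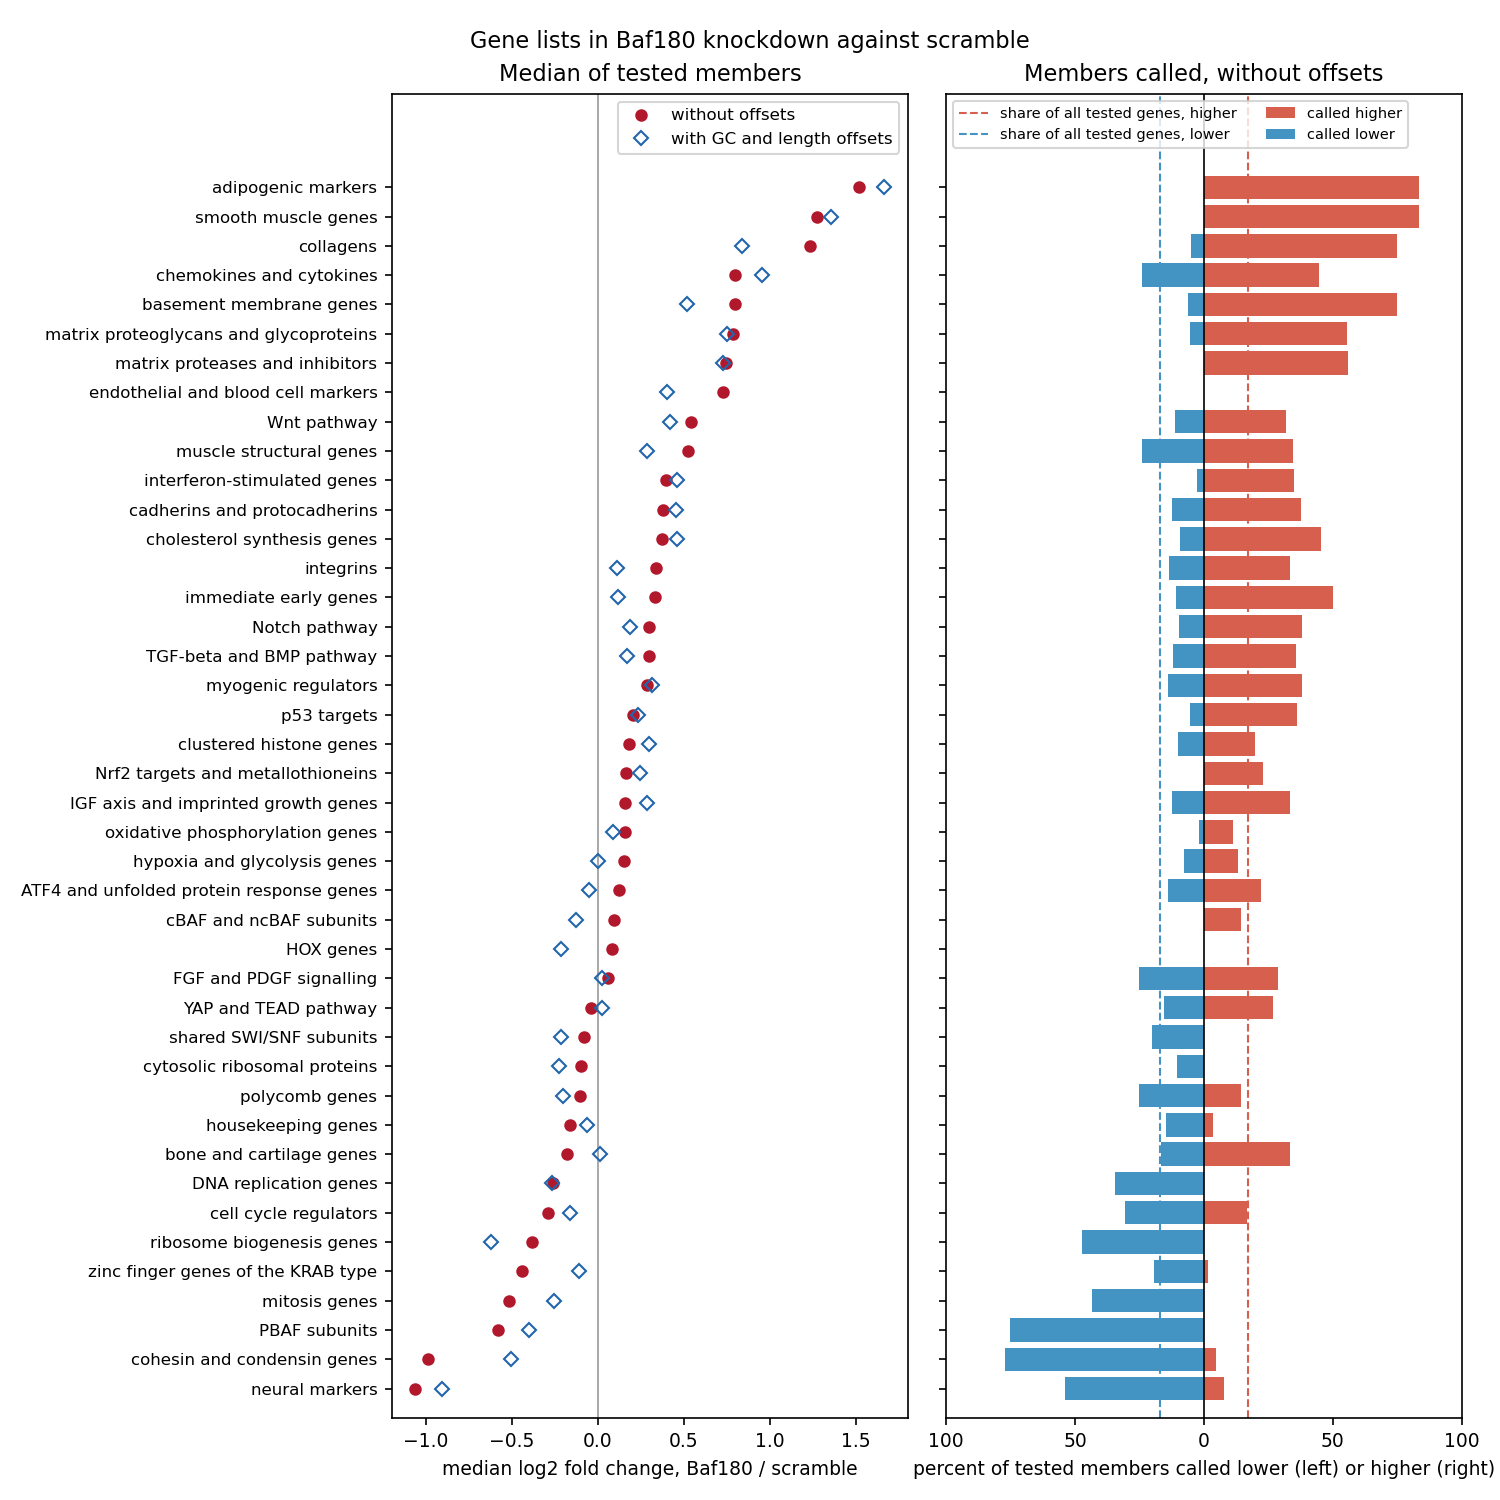
Each row is a gene list. The left panel gives the median log2 fold change of Baf180 over scramble of its tested members without offsets (filled circles) and with offsets for GC content and length (open diamonds). The right panel gives the percent of tested members called higher (red, to the right) and lower (blue, to the left), with dashed lines at 17.2% and 17.0% for all tested genes. Adipogenic markers (6 tested), smooth muscle genes (12) and collagens (20) head the list, and neural markers (13), cohesin and condensin genes (22) and PBAF subunits (4) end it.

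Extracellular matrix genes rose as a broad group. The collagen list is high in GC content (median 57.8%), so the shares of all genes are a low background for it without offsets. In the bin of all genes at 56.2 to 58.5% GC, 34.2% were called higher without offsets, at a median of 0.37. With offsets 19.9% of that bin were called higher. Of 20 tested collagens, 15 rose and 1 fell, with a median log2 fold change of 1.23 (15 and 2 with offsets, median 0.84), and all 15 rises held without any 1 library. Col6a2, a chain of the microfibril collagen VI, had 183 and 141 CPM in Baf180 libraries, against 22.6 and 17.6 CPM in scramble libraries (log2 fold change 3.01, SE 0.21). The single fall, not called without scramble replicate 2, was Col7a1, the collagen of anchoring fibrils, at 4.87 and 4.42 CPM in Baf180 and 8.76 and 10.2 CPM in scramble (log2 fold change -1.03). The major fibril chains Col1a1 (log2 fold change 1.26) and Col1a2 (1.46), named here after their values were seen, were among the rises.

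Basement membrane genes showed the same direction, with 12 of 16 tested members higher, 1 lower and a median of 0.80 (9 and 2 with offsets, median 0.52). Without Baf180 replicate 1, scramble replicate 1 or scramble replicate 2 there were 8, 8 and 7 rises, and the fall lost its call. Nid2, the linker protein nidogen 2, had 333 and 359 CPM in Baf180 libraries, against 69.9 and 62.1 CPM in scramble libraries (log2 fold change 2.39). Of 36 tested matrix proteoglycans and glycoproteins, 20 rose and 2 fell (24 and 2 with offsets). Fbln5, an elastic fibre protein, rose to 139.6 and 136 CPM in Baf180 libraries, against 22.2 and 18.1 CPM in scramble libraries, a log2 fold change of 2.77. The 2 falls were Tnc, the adhesion-modulating tenascin C (593 and 579.5 CPM in Baf180, 1393 and 1332 CPM in scramble), and the lysyl oxidase-like enzyme Loxl2 (29.2 and 31.8 CPM in Baf180, 79.5 and 75.5 CPM in scramble). Matrix remodelling genes moved with the matrix: 14 of 25 tested proteases and inhibitors rose (15 rose and 1 fell with offsets), among them Adamts2, which trims procollagens (68.2 and 61.3 CPM in Baf180, 8.65 and 8.55 CPM in scramble, log2 fold change 2.91), and Adamts4, which cuts proteoglycans (log2 fold change 1.61).

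Cell adhesion receptors were mixed. Among 15 tested integrins 5 rose and 2 fell (4 and 2 with offsets), with Itgb3 at 123 and 118 CPM in Baf180 libraries and 52.002 and 45.0 CPM in scramble libraries, and Itgb5 at 466 and 391 CPM in Baf180 and 157 and 158 CPM in scramble. The falls were Itgb7 (log2 fold change -0.98) and Itga6 (-0.64). Without Baf180 replicate 1, scramble replicate 1 or scramble replicate 2, integrin rises numbered 3, 4 and 3 and at most 1 fall kept its call. Of 16 tested cadherins and protocadherins, 6 rose and 2 fell (8 and 2 with offsets), led by Fat1, a giant cadherin (506 and 542 CPM in Baf180, 169.9 and 175 CPM in scramble, log2 fold change 1.60), and by Jup, the junction protein plakoglobin (log2 fold change 1.62). The rises in that list numbered 3, 4 and 3 in the same fits, and the falls Pcdh1 and Pcdh19 became 1, 1 and 1.

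Markers of other lineages moved in different directions. Of 12 tested smooth muscle genes, 10 rose, with a median of 1.28 (10 rises and 1 fall with offsets, median 1.35). Lmod1, an actin nucleator of smooth muscle, had 51.7 and 50.7 CPM in Baf180 libraries, against 6.12 and 4.74 CPM in scramble libraries (log2 fold change 3.23, SE 0.19). Actg2, the enteric smooth muscle actin, had 1405 and 1058 CPM in Baf180 libraries, against 279 and 251 CPM in scramble libraries (log2 fold change 2.22), although actin genes are so alike that reads can be split between them. The list as a whole summed to 15807 and 12505 CPM in Baf180 and 5751 and 5608 CPM in scramble.

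Only 6 of 14 adipogenic markers passed the filter, and 5 of these rose (4 with offsets). They include Cebpa, a transcription factor of fat cell differentiation (44.3 and 40.5 CPM in Baf180, 7.36 and 5.89 CPM in scramble, log2 fold change 2.68), and Pdgfra, a growth factor receptor of fat and fibroblast precursors (23.2 and 25.6 CPM in Baf180, 9.10 and 7.22 CPM in scramble). The mature fat cell markers Fabp4, Adipoq and Plin1 were below the filter. The rises numbered 4, 2 and 3 without Baf180 replicate 1, scramble replicate 1 or scramble replicate 2. Of 12 tested bone and cartilage genes, 4 rose and 2 fell (4 and 1 with offsets). Mgp, an inhibitor of calcification, had 111 and 104 CPM in Baf180 libraries, against 23.6 and 23.7 CPM in scramble libraries (log2 fold change 2.18), and the cartilage collagen Col2a1 had 5.22 and 4.04 CPM in Baf180 and 0.168 and 0.462 CPM in scramble. Sox9, the cartilage transcription factor, fell (49.6 and 55.8 CPM in Baf180, 93.2 and 83.5 CPM in scramble, log2 fold change -0.75), as did Phex at under 2 CPM. Phex was not called with offsets, in DESeq2 or in any fit without 1 library. Without scramble replicate 2 the rises in that list numbered 2, and the median of the list was -0.18 without offsets and 0.02 with them.

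Of 13 tested neural markers, 7 fell and 1 rose, with a median of -1.06 (9 and 1 with offsets, median -0.90). Besides the genes above, the falls include Crmp1 and Stmn2, and the rise, not called without scramble replicate 2, was Ncam1, an adhesion molecule that myoblasts also carry (166 and 153 CPM in Baf180, 108 and 102 CPM in scramble). Another 8 of the 21 markers, such as Dcx and Snap25, were below the filter. The list summed to 1341 and 1127 CPM in Baf180 and 2129 and 1941 CPM in scramble.

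Among the muscle regulators some rose and some fell. Pax7, the transcription factor of muscle stem cells, had 15.4 and 13.9 CPM in Baf180 libraries, against 3.20 and 2.77 CPM in scramble libraries (log2 fold change 2.29, SE 0.34, edgeR adjusted p = 0.00182). Myod1, the gene of the myogenic determination factor MyoD, had 366 and 292 CPM in Baf180 libraries, against 154 and 157 CPM in scramble libraries, with a log2 fold change of 1.09 (0.61 with offsets). Its relative Myf5 went the other way, at 7.13 and 10.7 CPM in Baf180 libraries and 22.2 and 28.0 CPM in scramble libraries (log2 fold change -1.49, and -0.87 with offsets). All 3 stayed called with offsets and without any 1 library. Myog, the gene of myogenin, which drives differentiation, was called higher but at low level, at 1.62 and 1.36 CPM in Baf180 and 0.225 and 0.231 CPM in scramble, and it lost its call in 2 of the 4 fits without 1 library.

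In all, 11 of 29 tested myogenic regulators rose and 4 fell (17 and 4 with offsets). Notch3, a receptor linked to muscle stem cell quiescence, had 183 and 146 CPM in Baf180 libraries, against 42.8 and 38.5 CPM in scramble libraries (log2 fold change 2.02), and Boc, a co-receptor of myoblast contacts, had 30.3 and 29.1 CPM in Baf180 and 8.93 and 10.3 CPM in scramble. The falls include Msc, the bHLH repressor musculin (0.464 and 0.709 CPM in Baf180, 4.89 and 5.43 CPM in scramble), and Met, the receptor of hepatocyte growth factor (26.9 and 31.4 CPM in Baf180, 73.0 and 68.6 CPM in scramble).

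Of 59 muscle structural genes, 30 were below the filter in these undifferentiated cells, and among the 29 tested 10 rose and 7 fell (8 and 6 with offsets). Acta1, the skeletal actin, had 114 and 93.7 CPM in Baf180 libraries, against 15.9 and 17.2 CPM in scramble libraries (log2 fold change 2.64), with the same caution on actin copies, and Ldb3, a Z-disc protein, had 25.8 and 27.8 CPM in Baf180 and 8.31 and 7.28 CPM in scramble. Chrnd, the delta subunit of the muscle acetylcholine receptor, fell to 3.07 and 2.18 CPM in Baf180 libraries, against 29.1 and 30.2 CPM in scramble libraries (log2 fold change -3.50), and Xirp1 was the largest fall. Without Baf180 replicate 1, scramble replicate 1 or scramble replicate 2 the rises numbered 5, 5 and 3, and with a filter at 5 CPM the median log2 fold change of the list was -0.15 in place of 0.53.

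Signalling genes also held strong single changes. In the Wnt pathway, where secreted ligands act through Frizzled receptors, 14 of 44 tested genes rose and 5 fell (15 and 6 with offsets, and 9 rises without scramble replicate 2). The ligand Wnt9a had 13.7 and 13.6 CPM in Baf180 libraries, against 3.82 and 2.60 CPM in scramble libraries (log2 fold change 2.09), while the ligand Wnt7b had 0.290 and 0.382 CPM in Baf180 libraries, against 10.0 and 8.78 CPM in scramble libraries (log2 fold change -4.77). The secreted regulators split as well, with Sfrp2 at 46.5 and 51.9 CPM in Baf180 and 2.64 and 1.39 CPM in scramble, and Dkk2 at 0.058 and 0.327 CPM in Baf180 and 2.41 and 2.37 CPM in scramble. In the Notch pathway 8 of 21 tested genes rose and 2 fell (8 and 3 with offsets). Beside Notch3, Lfng, a sugar transferase that modifies Notch receptors, rose (102 and 89.0 CPM in Baf180, 29.7 and 27.4 CPM in scramble), and the falls were the ligand Jag2 and Rbpj, the DNA-binding partner of cleaved Notch (63.2 and 74.6 CPM in Baf180, 136 and 119.8 CPM in scramble). Without offsets, Jag2 was not called in any fit that left out 1 library, at log2 fold changes of -0.69 to -0.53. With offsets and all libraries its log2 fold change was -1.14 and it was called.

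Of 42 tested TGF-beta and BMP pathway genes, 15 rose and 5 fell (18 and 5 with offsets). The activin subunit gene Inhbb had 177 and 181 CPM in Baf180 libraries, against 43.9 and 43.2 CPM in scramble libraries (log2 fold change 2.04), and the ligand Tgfb3 had 233 and 225 CPM in Baf180 and 61.9 and 60.7 CPM in scramble (log2 fold change 1.90). The falls include the signal transducer Smad2 (log2 fold change -0.56) and the repressor Tgif1 (-0.45). The rises were 15, 9 and 11 without Baf180 replicate 1, scramble replicate 1 or scramble replicate 2, while the falls lost their calls, and Smad2 was not called with offsets. Among 28 tested FGF and PDGF genes, 8 rose and 7 fell (10 and 7 with offsets), and the falls were 5, 4 and 4 in those fits. The ligand Pdgfb had 19.01 and 20.7 CPM in Baf180 libraries, against 2.70 and 3.24 CPM in scramble libraries (log2 fold change 2.74), and the receptor Pdgfrb 524 and 478 CPM in Baf180, against 230.1 and 229.6 CPM in scramble. The feedback inhibitors Spry4 (log2 fold change -1.54) and Dusp4 (-0.78) fell.

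Of 24 tested genes of the IGF axis and imprinted growth genes, 8 rose and 3 fell (10 and 5 with offsets). The imprinted RNA gene H19 had 2727 and 2278 CPM in Baf180 libraries, against 634 and 596 CPM in scramble libraries (log2 fold change 2.02). Igfbp2, a binding protein of insulin-like growth factors, fell to 256 and 188 CPM in Baf180 libraries, against 862 and 831 CPM in scramble libraries (log2 fold change -1.93), and Igf2bp3, an RNA-binding protein, fell by 3.32 on the log2 scale. Irs2, an adaptor of the insulin receptor, rose modestly (log2 fold change 0.86), and without scramble replicate 2 the list had 4 rises. Of 26 tested genes of the YAP and TEAD pathway, 7 rose, such as the DNA-binding factor Tead3 (112 and 93.4 CPM in Baf180, 38.3 and 39.2 CPM in scramble) and the exchange factor Arhgef17 (log2 fold change 1.16), and 4 fell, such as the kinase Lats1 (-1.05) and Yap1 itself (-0.51). With offsets 6 rose and 5 fell. In the fits without Baf180 replicate 1, scramble replicate 1 or scramble replicate 2 these rises were 7, 4 and 3 and at most 1 fall kept its call.

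Interferon-stimulated genes rose in part. Of 40 tested, 14 rose and 1 fell (18 and 1 with offsets), and 16 of the 56 on the list were below the filter. The largest fold change on the list was that of Tap1. Tap1, a subunit of the transporter that loads peptides for MHC class I (chromosome 17, 34187556 to 34197225), had 15.8 and 13.0 CPM in Baf180 libraries, against 1.63 and 1.96 CPM in scramble libraries (log2 fold change 2.999, SE 0.26, edgeR adjusted p = 1.34e-04). Its partner Tap2 had 18.6 and 14.1 CPM in Baf180 libraries, against 3.37 and 3.24 CPM in scramble libraries (log2 fold change 2.30). The fall was Ifit1, at 0.058 and 0.164 CPM in Baf180 and 0.674 and 0.578 CPM in scramble, and Isg15, a classic interferon-induced gene, was not called, at 0.754 and 0.655 CPM in Baf180 and 0.618 and 0.694 CPM in scramble. Without Baf180 replicate 1, scramble replicate 1 or scramble replicate 2 the rises numbered 8, 9 and 8, and Ifit1 was called in 1 of the 4 fits without 1 library.

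Interferon acts through promoter elements bound by STAT and IRF factors. In the 250 bases before the start of each gene (RefSeq promoters, GRCm38.p6), an interferon element, written here as GAAA, any 2 bases and GAAA again, or on the other strand TTTC, any 2 bases and TTTC (overlapping matches counted), was found in 17 of 49 promoters of interferon-stimulated genes (34.7%), against 2.98% of all 32851 promoters. These 49 promoters belong to 42 genes. Other pairs of element and list were searched in the same way. The CArG box, a 10-base run of CC, A or T bases and GG, was in 0 of 10 smooth muscle promoters, against 1.47% of all promoters. The sterol element, TCAC, any base and CCAC, was in 1 of 27 promoters of the cholesterol list, against 1.05%. The interferon element was in 3 of 12 interferon-stimulated genes called higher, in the 1 called lower, in 8 of 20 not called and in 5 of 9 below the filter. The 3 called higher are shown with Isg15, which was not called, so that promoters with and without a rise in the gene can be read side by side. These 4 were picked after their values were seen, and capitals mark the matches, which are a description and not a sign of binding.
Gbp2: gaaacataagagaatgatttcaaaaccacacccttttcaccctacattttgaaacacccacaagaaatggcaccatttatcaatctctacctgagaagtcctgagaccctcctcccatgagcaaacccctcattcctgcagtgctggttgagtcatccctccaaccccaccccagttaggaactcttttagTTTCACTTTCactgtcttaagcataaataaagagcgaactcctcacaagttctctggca
Ifitm2: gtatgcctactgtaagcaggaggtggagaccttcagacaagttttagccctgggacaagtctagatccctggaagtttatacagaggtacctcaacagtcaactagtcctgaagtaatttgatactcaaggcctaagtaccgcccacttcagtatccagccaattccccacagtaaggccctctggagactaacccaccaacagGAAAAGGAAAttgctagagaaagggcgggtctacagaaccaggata
Stat2: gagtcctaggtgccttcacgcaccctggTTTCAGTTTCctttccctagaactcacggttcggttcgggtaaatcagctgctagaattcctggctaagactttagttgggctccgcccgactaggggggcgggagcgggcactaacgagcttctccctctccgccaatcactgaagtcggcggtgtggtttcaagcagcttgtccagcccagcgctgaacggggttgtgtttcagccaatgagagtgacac
Isg15: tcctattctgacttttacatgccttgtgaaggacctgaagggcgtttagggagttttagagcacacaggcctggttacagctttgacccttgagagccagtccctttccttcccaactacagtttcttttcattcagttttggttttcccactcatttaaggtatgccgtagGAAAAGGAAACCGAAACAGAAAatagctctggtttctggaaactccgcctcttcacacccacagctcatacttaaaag

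Gbp2, a guanylate-binding protein of cell defence, lies on chromosome 3 with this window at chr3:142620413-142620662 on the plus strand, and had 4.41 and 4.26 CPM in Baf180 and 2.25 and 1.39 CPM in scramble (log2 fold change 1.25). Ifitm2, which blocks virus entry (chr7:140955962-140956211, minus strand), had 329 and 273 CPM in Baf180 and 167 and 153 CPM in scramble (log2 fold change 0.91). Stat2, a transducer of the interferon signal (chr10:128270248-128270497, plus strand), had 28.2 and 32.0 CPM in Baf180 and 20.39 and 21.3 CPM in scramble (log2 fold change 0.53). Isg15, a ubiquitin-like modifier (chr4:156200819-156201068, minus strand), holds 3 overlapping matches and had a log2 fold change of 0.10.

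Secreted signals of inflammation changed in both directions, with 13 of 29 tested chemokines and cytokines higher and 7 lower (16 and 5 with offsets). Cxcl14, a chemokine, had 174 counts over both Baf180 libraries and 2 over both scramble libraries, a ratio of 85.9 with a 95% interval of 23.4 to 715 for counting error. Il1rn, the antagonist of the interleukin 1 receptor, had 12.1 and 13.8 CPM in Baf180 libraries, against 1.35 and 0.982 CPM in scramble libraries (log2 fold change 3.47). Il34, a ligand of the CSF1 receptor, fell to 5.80 and 4.36 CPM in Baf180, against 11.7 and 11.9 CPM in scramble, and Il11 fell at under 2 CPM. The falls numbered 3, 3 and 4 without Baf180 replicate 1, scramble replicate 1 or scramble replicate 2.

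Several central regulators of cell division changed. The cyclin Ccnd2 had 15.2 and 18.99 CPM in Baf180 libraries, against 72.0 and 68.7 CPM in scramble libraries (log2 fold change -2.04, SE 0.19, edgeR adjusted p = 1.84e-04), and Ccnd1 had 274 and 325 CPM in Baf180 libraries, against 526 and 498 CPM in scramble libraries (log2 fold change -0.77). The inhibitor Cdkn1a, which encodes p21, had 449 and 394 CPM in Baf180 libraries, against 223 and 226 CPM in scramble libraries (log2 fold change 0.91). Mki67, the gene of the proliferation antigen Ki-67, fell to 78.4 and 52.4 CPM in Baf180 libraries, against 151 and 178 CPM in scramble libraries (log2 fold change -1.33). Mxd4, an antagonist of Myc, rose to 53.5 and 45.3 CPM in Baf180, against 14.2 and 12.8 CPM in scramble. Each of these 5 genes stayed called with offsets and without any 1 library. With offsets and a library left out, Mki67 was not called without Baf180 replicate 2 or without scramble replicate 2 (highest adjusted p = 0.0857, edgeR). Over the list of cell cycle regulators, 6 of 36 tested genes rose and 11 fell (5 and 11 with offsets), with 3, 2 and 2 rises and 3, 4 and 4 falls without Baf180 replicate 1, scramble replicate 1 or scramble replicate 2.

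Of 53 tested mitosis genes, 23 fell (23 with offsets), with a median of -0.51 (-0.26 with offsets). The kinesins of cell division Kif23 (48.7 and 47.6 CPM in Baf180, 109 and 96.2 CPM in scramble) and Kif4 (29.9 and 30.7 CPM in Baf180, 67.2 and 54.8 CPM in scramble) had log2 fold changes of -1.09 and -1.01. Of 52 tested DNA replication genes, 18 fell (23 with offsets, median -0.27), such as Orc1, of the origin recognition complex (12.2 and 13.4 CPM in Baf180, 26.0 and 26.4 CPM in scramble), and Gins1, of the replicative helicase (7.25 and 8.68 CPM in Baf180, 16.4 and 15.8 CPM in scramble). Among 22 tested cohesin and condensin genes, which shape chromosomes, 17 fell and 1 rose, but the list is low in GC content (median 43.2%) and its median of -0.98 became -0.50 with offsets, with 12 falls. Smc3, of the cohesin ring, had 18.0 and 16.7 CPM in Baf180 libraries, against 44.5 and 48.7 CPM in scramble libraries (log2 fold change -1.43, and -0.82 with offsets), and Ncapg, of condensin, had a log2 fold change of -1.71 (-0.86 with offsets). Without Baf180 replicate 1, scramble replicate 1 or scramble replicate 2 the falls were 9, 13 and 12 for mitosis genes, 4, 5 and 6 for replication genes and 5, 9 and 4 for cohesin and condensin genes.

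The median of all tested genes was below 0 in every fit run, at -0.088 to -0.006, and so was that of lists such as the mitosis genes. The ribosome biogenesis list had medians of -0.64 to -0.35 in these fits. Of 36 tested, 17 fell (27 with offsets), with a median of -0.38 (-0.62 with offsets), and 14 of the falls held without any 1 library. Nop56, of the particles that modify ribosomal RNA, had 177 and 166 CPM in Baf180 libraries, against 338 and 328 CPM in scramble libraries (log2 fold change -0.96, SE 0.12), and the nucleolar helicase Ddx21 had 124 and 138 CPM in Baf180 libraries, against 302 and 271 CPM in scramble libraries (log2 fold change -1.13). Of 78 tested cytosolic ribosomal proteins, 8 fell, and 28 fell and 2 rose with offsets, at a median of -0.10 (-0.22 with offsets). Rpl4 had 1012 and 1248 CPM in Baf180 libraries, against 1934 and 1819 CPM in scramble libraries (log2 fold change -0.73), and Rps7 a log2 fold change of -0.49. At most 3 of the falls of ribosomal proteins kept their call without Baf180 replicate 1, scramble replicate 1 or scramble replicate 2, and many of these genes have near-identical copies elsewhere that can take their reads.

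Of 33 tested genes of cholesterol and fatty acid synthesis and their regulators, 15 rose and 3 fell (19 and 2 with offsets, medians 0.37 and 0.46). Mvk, the mevalonate kinase of the sterol pathway, had 105 and 75.3 CPM in Baf180 libraries, against 42.9 and 38.7 CPM in scramble libraries (log2 fold change 1.15, SE 0.19). The falls include Elovl6, an enzyme that lengthens fatty acids (log2 fold change -1.08), and Abcg1, a sterol exporter (-1.76). Most of these rises were small, and without Baf180 replicate 1, scramble replicate 1 or scramble replicate 2 they numbered 4, 3 and 3, with at most 1 fall. Oxidative phosphorylation genes had 6 rises and 1 fall among 53 tested (at most 2 rises in those fits, and 13 without Baf180 replicate 2). With offsets there were 11 rises and 4 falls, and 3 of the rises were called in both fits. The fall without offsets was Sdhd, an anchor subunit of succinate dehydrogenase, at 40.2 and 45.2 CPM in Baf180 libraries and 128 and 124 CPM in scramble libraries (log2 fold change -1.56), while Sdha and Sdhc of the same enzyme rose (log2 fold changes 0.45 and 0.43). Of 38 tested hypoxia and glycolysis genes, 5 rose, such as Ddit4 (0.79) and the lactate exporter Slc16a3 (1.07), and 3 fell, among them Hif1a (-1.06) and Bnip3l (-0.78), neither of which was called with offsets. With offsets 8 of the hypoxia and glycolysis genes rose and 8 fell. In the same 3 fits the hypoxia list had at most 2 rises and at most 1 fall.

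Among stress genes, 13 of 36 tested p53 targets rose and 2 fell (14 and 3 with offsets, and 9, 8 and 8 rises without Baf180 replicate 1, scramble replicate 1 or scramble replicate 2). The stress cytokine Gdf15 had 78.5 and 57.7 CPM in Baf180 libraries, against 14.4 and 11.9 CPM in scramble libraries (log2 fold change 2.37), and the epoxide hydrolase Ephx1 had 661 and 476 CPM in Baf180 and 157 and 158 CPM in scramble. The falls, Ccng1, of the cyclin G1 gene, and Polk, a DNA polymerase, were not called with offsets, nor without Baf180 replicate 1, scramble replicate 1 or scramble replicate 2. Of 36 tested ATF4 and unfolded protein response genes, 8 rose and 5 fell (11 and 10 with offsets, median 0.12 without and -0.05 with them), with the transcription factor Atf3 at 0.696 and 0.873 CPM in Baf180 libraries and 7.69 and 8.32 CPM in scramble libraries (log2 fold change -3.34), the chaperone Hsp90b1 at a log2 fold change of -0.88 and the stress regulator Nupr1 at 0.98. Of 26 tested Nrf2 targets and metallothioneins, 6 rose (11 rose and 1 fell with offsets), among them the quinone reductase Nqo1 (99.2 and 118 CPM in Baf180, 59.0 and 52.6 CPM in scramble) and the glutathione transferase Gstm1 (305 and 206 CPM in Baf180, 108 and 98.5 CPM in scramble). The ATF4 list had 5, 2 and 1 rises and 3, 1 and 2 falls without Baf180 replicate 1, scramble replicate 1 or scramble replicate 2, and the Nrf2 list 3, 3 and 2 rises.

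Of 28 immediate early genes, which respond within minutes to growth factors, 14 rose and 3 fell, and 9 rose and 7 fell with offsets. Egr2 had 21.3 and 25.6 CPM in Baf180 libraries, against 8.54 and 6.88 CPM in scramble libraries (log2 fold change 1.61). The antiproliferative gene Btg2 had a log2 fold change of 1.20. Atf3, described above, was the largest fall on this list too (log2 fold change -3.34). Fosl1 had a log2 fold change of -0.61 and was not called without Baf180 replicate 2, scramble replicate 1 or scramble replicate 2. The rises numbered 9, 8 and 9 and the falls 2, 1 and 1 without Baf180 replicate 1, scramble replicate 1 or scramble replicate 2.

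Among chromatin genes, 4 of 28 tested polycomb genes rose and 7 fell (2 and 9 with offsets). Cbx7, a reader of methylated histone H3, rose to 15.7 and 16.9 CPM in Baf180 libraries, against 6.51 and 7.28 CPM in scramble libraries (log2 fold change 1.24), and the methyltransferase Ezh1 rose too (0.97). Eed, the core partner of Ezh1 and Ezh2, fell to 10.3 and 11.8 CPM in Baf180, against 21.3 and 20.7 CPM in scramble, and Pcgf6 to 2.55 and 3.601 CPM in Baf180, against 8.65 and 8.26 CPM in scramble. The list had 2, 2 and 2 rises and 1, 4 and 3 falls without Baf180 replicate 1, scramble replicate 1 or scramble replicate 2. Zinc finger genes of the KRAB type, which are low in GC content (median 44.0%), had 12 falls and 1 rise among 62 tested, and 5 and 2 with offsets. Zfp62 (log2 fold change -1.89, and -1.05 with offsets) and Zfp110 (-0.81 and -0.45) were among the falls and Zfp324 was the rise (0.46, not called with offsets, with RLE scaling, in DESeq2, in limma-voom or in any fit without 1 library). The falls numbered 1, 7 and 2 in the fits above. Of 20 tested histone genes, 4 rose and 2 fell (6 and 4 with offsets), including H2bc4 and H1f2 (log2 fold changes 1.91 and 1.12) and the variants Macroh2a1 and H2az1 (-0.54 each), with the caution that histone genes share sequence. The rises of histone genes were 3, 3 and 2 in those fits, where both falls lost their call, and 8 without Baf180 replicate 2. HOX genes, with 19 of 39 tested, had a median log2 fold change of 0.08, and -0.21 with offsets.

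Of 27 housekeeping genes, often used as constant references, 1 rose (3.70%) and 4 fell (14.8%), and 3 rose and 5 fell with offsets. The share of rises was below the 17.2% of all tested genes, while the share of falls was near their 17.0%. Some of the falls lost their call in fits without 1 library. The median of the list was -0.16, and between -0.23 and -0.04 in every fit run. Tfrc, the transferrin receptor, had 26.4 and 28.9 CPM in Baf180 libraries, against 85.4 and 74.6 CPM in scramble libraries (log2 fold change -1.53, and -0.76 with offsets). Hprt, of purine salvage, had 26.3 and 31.7 CPM in Baf180 libraries, against 63.7 and 53.7 CPM in scramble libraries (log2 fold change -1.02), and was not called with offsets (-0.25).

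The Baf180 libraries were also tested directly against the Brd9 and the Baf250A libraries, which does not involve scramble. Against Brd9, 23.3% of genes were higher in Baf180 and 26.3% lower (18.9% and 14.0% with offsets), and against Baf250A 31.7% were higher and 30.8% lower (26.0% and 28.7% with offsets). In either direction these are 49.6% and 32.9% of genes against Brd9, without and with offsets, and 62.5% and 54.7% against Baf250A. Genes higher in Baf180 than in each of the 3 other groups made up 9.88% without offsets and 7.24% with them, and genes lower than in each 11.5% and 6.22%. In both fits 528 were higher (4.25%) and 445 lower (3.58%). These 528 and 445 come from the 1565 rises and 1380 falls called against scramble in both fits. The 10 largest rises and 10 largest falls were picked among such calls, so the shares of all genes are not their background. The 528 include 5 of the 10 largest rises, Aoc3, Fndc1, Svep1, Col8a2 and Ccn5. The 445 include 3 of the 10 largest falls, Nefl, Gap43 and Nefm.

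Among the matrix genes of the largest rises, the pattern over the knockdowns differed from gene to gene. Svep1 had 212 and 203 CPM in Baf180 libraries, 63.6 and 66.2 CPM in Brd9 libraries, 71.5 and 71.5 CPM in Baf250A libraries and 12.1 and 9.54 CPM in scramble libraries, so Baf180 was the highest and scramble the lowest. Its log2 fold change was 1.68 over Brd9 (edgeR adjusted p = 4.28e-04) and 1.54 over Baf250A (edgeR adjusted p = 7.26e-05). Col8a2, by contrast, had 42.7 and 37.0 CPM in Baf180 and 20.9 and 16.1 CPM in Brd9, but 1.81 and 1.81 CPM in Baf250A, near the 2.86 and 1.96 CPM of scramble. Lama4 had 22.4 and 20.1 CPM in Baf180 and 4.90 and 3.72 CPM in Brd9, but 28.1 and 27.3 CPM in Baf250A. Against scramble, which these comparisons share, the log2 fold change of Sfrp2 was 4.60 for Baf180, 5.08 for Brd9 and 3.83 for Baf250A, and the direct difference between Baf180 and Brd9 was not called (-0.47, edgeR adjusted p = 0.128), although it was with offsets (-0.77).

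Several genes stood out from both other knockdowns. Pdgfb had a log2 fold change of 3.36 over Brd9 and 3.24 over Baf250A (edgeR adjusted p = 2.10e-04 and 4.64e-05). Tap1 lay 2.24 above Brd9 and 1.34 above Baf250A on the log2 scale (0.52 above Baf250A with offsets, still called). Myod1 lay 1.02 above Brd9 and 1.52 above Baf250A (0.46 and 0.56 with offsets, still called). Of the 33 genes of cholesterol synthesis, 11 were higher than in each of the 3 other groups in both fits and 1 was lower, against 4.25% and 3.58% of all genes. Higher in the same way were 4 of 20 collagens, 6 of 36 matrix proteoglycans and glycoproteins and 5 of 40 interferon-stimulated genes. So were 3 of 16 cadherins and protocadherins, of which 1 other was lower, and 3 of 20 histone genes. Among cohesin and condensin genes 5 of 22 were lower than in each other group. Further lists had such genes as well, so the trait is not particular to the lists named.

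The neuronal falls had different depths in the 3 knockdowns. Nefl had 1.62 and 2.35 CPM in Baf180, and its log2 fold change was -4.66 against Brd9 and -2.54 against Baf250A (edgeR adjusted p = 1.24e-05 and 4.46e-05). Against the shared scramble libraries the log2 fold changes of Nefl were -7.02 for Baf180, -2.36 for Brd9 and -4.48 for Baf250A, so scramble was the highest group. For Ngfr the direct difference between Baf180 and Baf250A was -0.16 (-0.9956 with offsets), and for Wnt7b it was 0.14 (-0.75 with offsets). None of these was called. Since scramble is the highest group for these genes and is 1 line, a low level in the knockdowns and a high level in that line cannot be told apart. Pax7 split the knockdowns: Baf180 and Brd9 did not differ by the test (0.42, edgeR adjusted p = 0.269), whereas Baf180 exceeded Baf250A by 4.69 on the log2 scale. Mki67 was 2.15 lower in Baf180 than in Baf250A on the log2 scale and 0.71 lower than in Brd9. With offsets the difference from Brd9 turned to 0.11 higher in Baf180 and was not called.

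**Figure D4:**
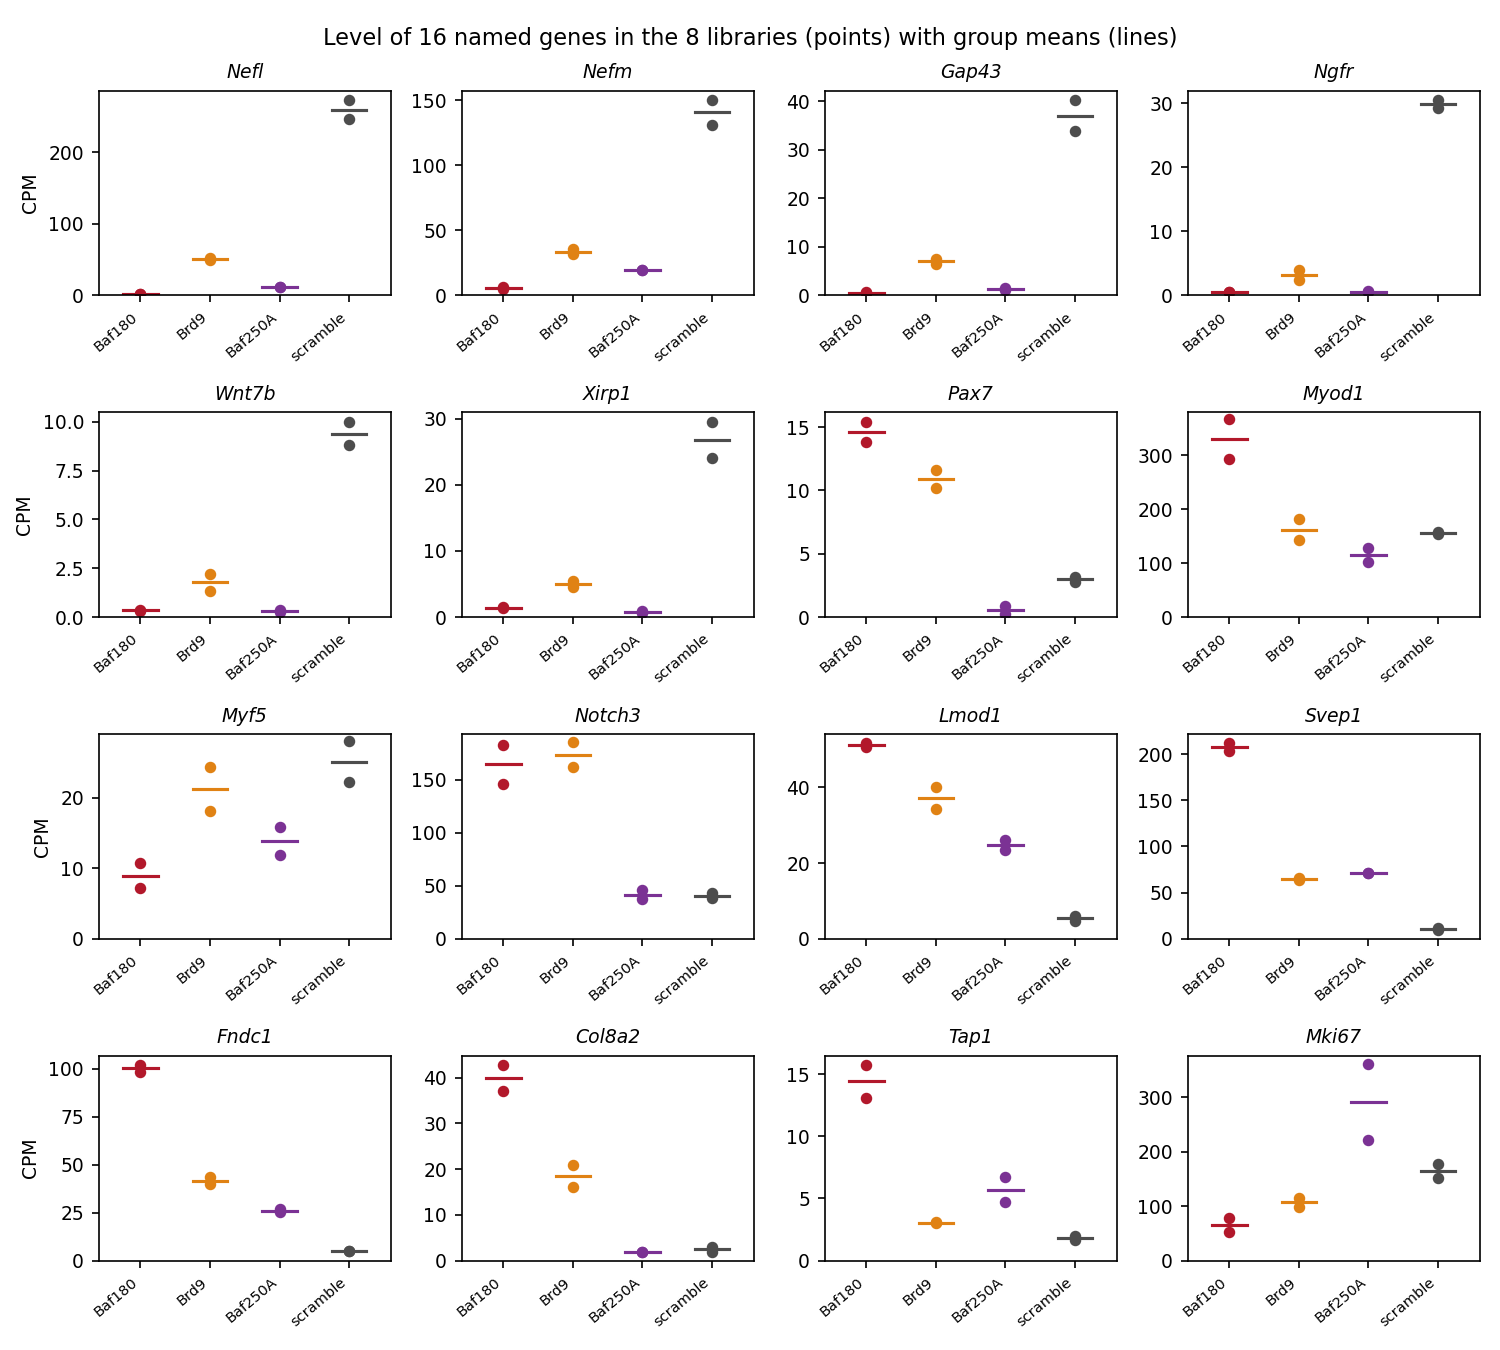
Level in CPM of 16 named genes in each library (points) of Baf180, Brd9, Baf250A and scramble, with group means as lines and each axis from 0. Scramble is highest for Nefl, Nefm, Gap43, Ngfr, Wnt7b and Xirp1, Baf180 is highest for Svep1, Fndc1, Col8a2, Tap1 and Myod1 and lowest for Mki67, and Pax7 and Notch3 are high in Baf180 and Brd9 and low in Baf250A.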

How the data were processed

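For 8 RNA-seq libraries the authors deposited estimated counts by gene and, per the file header, a gene length in bases, which the authors gave as another column. Per the submitters' processing notes the genome was mm10 and the tools HISAT2, StringTie, Cufflinks, Bowtie2, RSEM and DESeq2, with roles and versions not given in the sources used here, nor whether counting used strand. Per the labels' protocols RNA was taken with TRIzol, and libraries were made by BGI and read on a BGISEQ-500.

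Estimated counts were rounded to whole numbers, and 12420 of 24573 genes passed filterByExpr. edgeR 4.0.16 (R 4.3.3, limma 3.58.1) with TMM scaling and the quasi-likelihood test was fitted to all 8 libraries with 1 term a group, so that the groups share an estimate of spread. P-values were adjusted by Benjamini-Hochberg over all tested genes, with a threshold of 0.05. Each SE was taken as the absolute log2 fold change over sqrt(F). The code was tested on simulated data. Offsets were loess fits (span 0.3) of each library's deviation on GC content, then on length. GC content came from GENCODE M21 transcripts for 12290 tested genes (99.0%). Gene names were matched by gene ID for 24479 genes and by RefSeq accession for 9, and 85 were unmatched. Coordinates are RefSeq's on GRCm38, the assembly mm10 denotes. Counting intervals cover counting error only. Depth ranged from 17763062 to 20400855 counts per library, and genes at a few counts are measured least precisely. DESeq2 1.42.0, limma-voom, RLE and upper-quartile scaling, other filters, the 4 libraries alone, a replicate block, offsets and leaving out each library were the alternatives. The offsets with each library left out were added after seeing the data.

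Genes were named by rule: Pbrm1; the 10 largest rises and falls called with and without offsets, with 5 CPM or more on average and no overlap between groups; the 2 rises and 2 falls with the lowest p on each list; every tested member of lists of 6 or fewer; genes called in opposite directions with and without offsets, of which there were 0; and Arid2, Brd7, Phf10, Smarca4, Pax7, Myod1, Myf5, Myog, Cdkn1a, Ccnd1 and Mki67. Members, lists and rules were chosen with earlier results of these data known. Some genes that the rule picks are not reported here.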

Additional observations from a re-analysis of the deposited data

How the results depend on the processing

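The count of genes called depended most on the libraries. Leaving out 1 library at a time gave 843 to 2383 rises and 642 to 2146 falls, against 2142 and 2111, and with offsets 1436 to 1991 rises and 1694 to 2093 falls. Every other alternative stayed within 1.5 times the main counts: 1747 to 2422 rises and 1739 to 2714 falls. Upper-quartile scaling, which moved the median of all genes most, by -0.067 on the log2 scale, gave 1857 rises and 2537 falls. Between Baf180 and scramble the replicate numbers did not pair the samples (correlation of same-numbered deviations -0.03, against 0.62 for Baf250A with Baf180 and -0.65 for Brd9 with Baf180), and the replicate block gave 1747 rises and 1739 falls, or 2016 and 2252 with offsets. Among named genes 4 changed sign, each with offsets. Smarca4 had log2 fold changes of -0.25 with offsets and -0.25 with the block added, and -0.28, -0.22, -0.23 and -0.27 without Baf180 replicate 1, Baf180 replicate 2, scramble replicate 1 and scramble replicate 2. Arid2 had 0.0462 with offsets, 0.0449 with the block added, and 0.136, 0.0389 and 0.0535 without Baf180 replicate 1, scramble replicate 1 and scramble replicate 2. Ccng1 had 0.0200 and 0.0409 with offsets without Baf180 replicate 1 and scramble replicate 1, and Grk4 0.00882 with offsets without scramble replicate 2. The cause was not tested. With 2 libraries a group, 1 shRNA and 1 scramble line, effects of the line, the shRNA sequence and the knockdown cannot be told apart.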
